A study of Mus musculus with 12 samples.

Results

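The 33 genes described here encode the proteins that take up glucose, break it down to pyruvate, export lactate and respond to low oxygen through HIF, the hypoxia-inducible transcription factor. They were listed by symbol and matched to NCBI mouse gene IDs, and all 33 were found among the 24028 genes of both count tables. RNA was measured in 12 libraries of bone marrow cells from C57BL/6 mice, in 4 groups of 3. The wt LSK libraries (genotype wild type/control) came from marrow without lineage-positive cells, sorted for Sca-1 and c-Kit, where stem cells and early progenitors are found. In the other 3 groups (genotype MLL-ENL inducible KI) the mice carried MLL-ENL, a leukemia fusion protein, as a knock-in that Doxycycline switches on, and were given Doxycycline until acute leukemia developed. Their leukemic cells were taken from total marrow (iMLL-ENL total) or sorted for HIGH or LOW B220, a CD45 isoform found on B cells and some other marrow cells. The wt LSK libraries thus differ from the iMLL-ENL total libraries in genotype, in the sort and in Doxycycline treatment as far as the labels state it, and these cannot be told apart. The labels give 3 mice for each genotype but tie no library to a mouse, so the p-values below measure the spread between libraries.

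Glycolysis turns each glucose into pyruvate through a fixed chain of enzymes. Hexokinase and phosphofructokinase control entry into the chain, and pyruvate then either enters mitochondria through pyruvate dehydrogenase or is reduced to lactate by lactate dehydrogenase and leaves the cell. When oxygen is low, the EGLN prolyl hydroxylases no longer mark HIF alpha subunits for destruction, and HIF raises transcription of most genes of this chain. Normal hematopoietic stem cells are known for a glycolytic, low-oxygen metabolism held in part by HIF and by pyruvate dehydrogenase kinases, and neutrophils and macrophages are also strongly glycolytic.

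Library totals ran from 10921521 to 22706882 counts. Levels are given in CPM (counts scaled to the library total), in the order of replicates 1, 2 and 3. Marker genes were checked against the labelled sorts. The 9 stem cell and LSK genes summed to 3491 to 3968 CPM in wt LSK and 160.2 to 270.5 CPM across iMLL-ENL total, and 12 granulocyte genes to 1483 to 2425 and 9399 to 30910.0 CPM. The 7 monocyte and macrophage genes summed to 45.5 to 162 CPM in wt LSK and 777 to 1666 CPM across iMLL-ENL total. The 8 erythroid genes stood at 558 to 636 CPM in wt LSK and 2.94 to 9.31 CPM across iMLL-ENL total. For 7 B lineage genes the sums were 299 to 1204 and 19 to 31.7 CPM, the highest of them in wt LSK replicate 2, for 5 T lineage genes 12.7 to 32.8 and 3.92 to 23.7 CPM, and for 4 genes of plasmacytoid dendritic cells 366 to 643 and 209 to 295 CPM. These sums move with the comparison of leukemic marrow with LSK, and their part in the results on glycolysis was not tested. In the B220 sorts, the stem cell and LSK genes summed to 112 to 166 CPM in B220 LOW and 410.1 to 702 CPM in B220 HIGH, and the B lineage genes to only 7.27 to 12.6 and 10.7 to 50.4 CPM. Both sorts thus held few B lineage transcripts, and 1 of the 7 B lineage genes had 0 counts in all B220 LOW libraries. The genes of plasmacytoid dendritic cells summed to 178 to 320 CPM in B220 LOW and 208 to 474 CPM in B220 HIGH. The T lineage genes summed to 0.589 to 1.12 and 0.183 to 30.3 CPM, and the erythroid genes to 4.19 to 10.5 and 1.82 to 27.8 CPM. Among the B220 libraries, B220 HIGH replicate 2 had the highest B lineage, T lineage and erythroid sums. Among the B220 libraries, replicate 1 of both sorts stands apart for many of the 33 genes, and the sorts are compared below with and without these 2 libraries. In bulk RNA, fewer cells of a type and less RNA per cell cannot be told apart.

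Several glycolytic genes have many processed copies in the mouse genome, which bears on their counts. Of the 50-base stretches in the coding transcripts of Gapdh, 58.4% also occur in a transcript of another GENCODE gene, and 215 annotated pseudogenes share at least 1. The share was 68% for Pgk1, 59.1% for Bnip3, 49.5% for Eno1 and 41.5% for Pgam1. It was 24.5% for Gpi1, 23.7% for Pkm, 21% for Ldhb, 15.4% for Pfkp, 11.4% for Ankrd37 and 10.4% for Ldha. Pseudogenes shared only 20.7% of the stretches of Bnip3, and 0% of those of Pfkp and Ankrd37. The other genes sharing stretches were Gm45507 and AC160336.1 for Bnip3, Pitrm1 for Pfkp, and Lrp2bp and Ufsp2 for Ankrd37. How the counting treated reads that match several places is not given in the sources used here, so the levels of these genes are uncertain. Gapdh, a common reference gene in expression work, stood at only 5.48, 5.60 and 5.05 CPM in wt LSK. Strand is lost with this library kit, so reads in exons shared with another gene are uncertain as well. Such overlaps covered 26.4% of the exon bases of Ankrd37 (Lrp2bp and Ufsp2), 22.3% of Bnip3 (Gm45507), 15.3% of Pkm (Gm49759), 11.5% of Gpi1 (Gm26762), 10.7% of Pfkm (Gm26513 and Senp1) and 8.11% of Hif1a (Gm15283 and Gm49321).

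The first comparison set leukemic cells of total marrow against the normal LSK compartment. Of the 18 enzyme and regulator genes of the upper and lower chain, 10 rose in the leukemic libraries and 1 fell. The largest rises among the 33 genes were those of the lactate exporter gene Slc16a3, the hexokinase gene Hk3 and the isomerase gene Gpi1. The glucose transporter gene Slc2a3, the muscle-type phosphofructokinase gene Pfkm and the pyruvate dehydrogenase kinase gene Pdk1 fell. All 33 genes passed the filter on low counts. Of these, 13 rose, 3 fell and 17 did not pass (edgeR's quasi-likelihood test, adjusted p under 0.05). The calls higher make up 39.4% of the 33 genes, against 15.5% of the 13811 genes tested, and the calls lower 9.09% against 15.1%. DESeq2 called 17 of the 33, against 35.5% of all genes tested. At an unadjusted p under 0.05 edgeR had 18 of the 33, against 41.3% of all genes tested. The median log2 change over the 33 genes was 0.84, against 0.05 over all genes tested. With scaling to library totals in place of TMM factors these medians were 0.68 and -0.10. Every leukemic library lay above every wt LSK library for 16 of the 33 genes (48.5%, against 19.0% of all genes tested) and below for 5 (15.2%, against 29.5%).

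**Figure D1:**
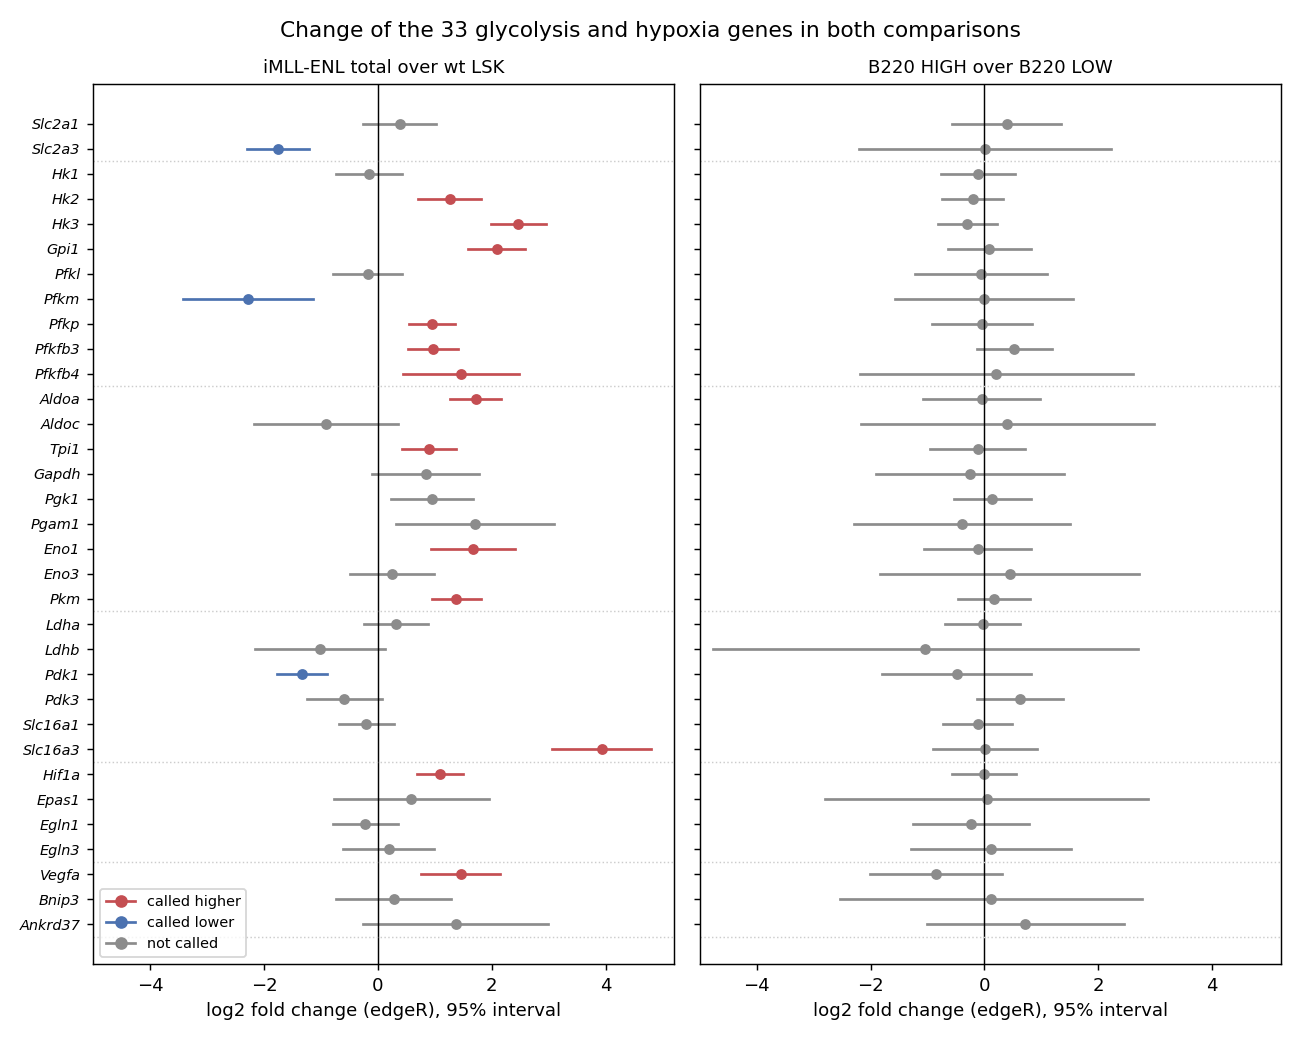
Log2 fold change with its 95% interval for each of the 33 genes, grouped by role between the dotted lines, for iMLL-ENL total over wt LSK (left) and B220 HIGH over B220 LOW (right). Red and blue points were called higher and lower at an edgeR adjusted p under 0.05 and grey points were not called: 13 are red and 3 blue on the left, and all 33 are grey on the right.

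Promoter windows of 4 genes are printed because they stand for the patterns reported here: Slc16a3 and Hk3 had the largest rises in leukemic marrow, Ldha had the highest level per length, and Bnip3 had the largest ratio of replicate 1 to the other B220-sorted libraries. Each window runs from 250 bases before to 50 bases after a transcript start in RefSeq (GRCm38.p6), 5′ to 3′ on the gene's strand. Capitals mark the core of the hypoxia response element, ACGTG or GCGTG on either strand. The windows are chr11:120948817-120949116, plus strand (Slc16a3), chr13:55021336-55021635, minus strand (Hk3), chr7:46845554-46845853, plus strand (Ldha) and chr7:138909457-138909756, minus strand (Bnip3).
Slc16a3: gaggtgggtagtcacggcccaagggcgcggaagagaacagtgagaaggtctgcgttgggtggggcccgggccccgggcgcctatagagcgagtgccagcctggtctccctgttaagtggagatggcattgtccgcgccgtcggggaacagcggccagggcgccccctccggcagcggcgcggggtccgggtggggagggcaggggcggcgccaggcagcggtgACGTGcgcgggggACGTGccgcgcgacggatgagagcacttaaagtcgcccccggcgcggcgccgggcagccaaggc
Hk3: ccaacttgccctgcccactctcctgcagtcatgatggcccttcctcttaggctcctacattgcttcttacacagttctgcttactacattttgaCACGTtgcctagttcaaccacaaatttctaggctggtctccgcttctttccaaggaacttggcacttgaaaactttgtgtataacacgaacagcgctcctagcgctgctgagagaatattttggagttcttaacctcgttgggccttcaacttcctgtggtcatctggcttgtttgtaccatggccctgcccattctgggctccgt
Ldha: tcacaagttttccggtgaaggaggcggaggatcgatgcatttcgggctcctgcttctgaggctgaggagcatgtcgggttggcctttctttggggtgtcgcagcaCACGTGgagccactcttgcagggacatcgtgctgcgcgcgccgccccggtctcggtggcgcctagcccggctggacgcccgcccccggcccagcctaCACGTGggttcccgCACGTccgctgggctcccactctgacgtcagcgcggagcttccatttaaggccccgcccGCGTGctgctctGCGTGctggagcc
Bnip3: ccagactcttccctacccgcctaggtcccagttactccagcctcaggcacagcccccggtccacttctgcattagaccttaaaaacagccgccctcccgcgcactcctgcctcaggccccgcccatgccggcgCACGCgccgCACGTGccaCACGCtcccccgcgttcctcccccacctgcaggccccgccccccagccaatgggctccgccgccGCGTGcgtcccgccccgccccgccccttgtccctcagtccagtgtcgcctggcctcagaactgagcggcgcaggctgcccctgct
The Slc16a3 window holds 2 matches, the Hk3 window 1, the Ldha window 7 and the Bnip3 window 5. Ldha has another window in the table, chr7:46846832-46847131, with 2 matches, neither of them part of the palindrome described next. A CACGTG, the E-box that MYC and USF proteins bind, counts as 2 matches because it reads the same on both strands; the printed Ldha window has 2 of these and the Bnip3 window 1. RefSeq windows were found for 31 of the 33 genes, all but Slc2a3 and Epas1. Of their 45 windows, 37 (82.2%) hold at least 1 match, against 43.8% of all 32851 windows of the same length. Their median GC content was 62.0%, against 52.7% over all windows. A match is only a run of letters, not a measured site.

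Glucose enters blood cells mainly through GLUT1 (Slc2a1) and the high-affinity GLUT3 (Slc2a3). Slc2a3 (NCBI gene 20527, chromosome 6, 122727809 to 122802363) stood at 127, 92.8 and 90.8 CPM in wt LSK and 25.6, 26.6 and 31.3 CPM across iMLL-ENL total. The groups did not overlap, and Slc2a3 fell (log2 fold change -1.75, SE 0.24, edgeR adjusted p = 0.00108). Slc2a1 had 38.3, 28.1 and 34.1 CPM in wt LSK and 43.3, 27.9 and 47.2 CPM across iMLL-ENL total. Those ranges overlap and Slc2a1 did not pass (log2 fold change 0.39, SE 0.28, edgeR adjusted p = 0.336), with a 95% interval from -0.25 to 1.02.

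Hexokinases trap glucose in the cell as glucose 6-phosphate. Hk3 (NCBI gene 212032, chromosome 13, 55005985 to 55021475), the isoform typical of myeloid cells, had 43.5, 73.6 and 59.9 CPM in wt LSK and 294, 280.0 and 300.3 CPM across iMLL-ENL total. The 3 leukemic libraries lay close together and far above the normal ones (log2 fold change 2.47, SE 0.21, edgeR adjusted p = 0.000115). Hk2 (NCBI gene 15277, chromosome 6, 82725025 to 82774454), the inducible isoform of proliferating cells, had 57.2, 40.8 and 37.4 CPM in wt LSK and 92.3, 89.9 and 111 CPM across iMLL-ENL total, with no overlap (log2 fold change 1.26, SE 0.25, edgeR adjusted p = 0.00569). Hk1, the housekeeping isoform, had 75, 72.3 and 115 CPM and 74.7, 55.7 and 80.6 CPM, and did not pass (log2 fold change -0.16, SE 0.25, edgeR adjusted p = 0.679).

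Glucose 6-phosphate isomerase, from Gpi1, makes fructose 6-phosphate, which phosphofructokinase then commits to glycolysis. Gpi1 (NCBI gene 14751, chromosome 7, 34201327 to 34230336) had 75.5, 98.6 and 88.2 CPM in wt LSK and 319, 266 and 409.6 CPM across iMLL-ENL total, every leukemic library above every normal one (log2 fold change 2.09, SE 0.22, edgeR adjusted p = 0.000325). Among the phosphofructokinase subunits, the platelet-type Pfkp (NCBI gene 56421, chromosome 13, 6579874 to 6649060) rose from 51.4, 54.6 and 53 CPM to 87.2, 98.3 and 90.9 CPM (log2 fold change 0.95, SE 0.17, edgeR adjusted p = 0.0042). The muscle-type Pfkm (NCBI gene 18642, chromosome 15, 98092589 to 98132447) fell from 29.7, 31.2 and 27.1 CPM to 8.85, 1.89 and 5.64 CPM (log2 fold change -2.27, SE 0.50, edgeR adjusted p = 0.00982). The liver-type Pfkl, at 44.1, 49.6 and 42.7 CPM and 39.6, 24.3 and 44.1 CPM, did not pass (log2 fold change -0.18, SE 0.27, edgeR adjusted p = 0.653). So 1 subunit gene rose and 1 fell, with no overlap between the groups for either.

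PFKFB enzymes make fructose 2,6-bisphosphate, the strongest activator of phosphofructokinase. Pfkfb3 (NCBI gene 170768, chromosome 2, 11471430 to 11554071) had 75.5, 73.4 and 68.1 CPM in wt LSK and 135, 107 and 139.7 CPM across iMLL-ENL total and rose (log2 fold change 0.97, SE 0.19, edgeR adjusted p = 0.00617). Pfkfb4 (NCBI gene 270198, chromosome 9, 108988272 to 109032236) was low, at 4.14, 4.55 and 7.55 CPM and 7.83, 13.3 and 18.7 CPM. It passed (log2 fold change 1.46, SE 0.45, edgeR adjusted p = 0.0374), but not without wt LSK replicate 1, 2 or 3 (edgeR adjusted p = 0.152, 0.134 and 0.0563), with iMLL-ENL total replicate 3 left out (0.123) or with library totals as the scale (0.0579).

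The lower chain splits the sugar and recovers ATP. Of its 9 genes, 4 rose, 0 fell and 5 did not pass, and for 7 every leukemic library lay above every wt LSK library. Of all genes tested, 15.5% rose, 15.1% fell and 19.0% lay above without overlap. Aldoa (NCBI gene 11674, chromosome 7, 126795234 to 126800994), the main aldolase gene, stood at 57.5, 85.8 and 69.5 CPM in wt LSK and 202, 196 and 227 CPM across iMLL-ENL total (log2 fold change 1.72, SE 0.19, edgeR adjusted p = 0.000441). Pkm (NCBI gene 18746, chromosome 9, 59656576 to 59679372), which encodes the pyruvate kinase of most tissues, rose from 115, 134 and 126 CPM to 243, 310.2 and 323 CPM (log2 fold change 1.38, SE 0.19, edgeR adjusted p = 0.00102). Eno1 (NCBI gene 13806, chromosome 4, 150236708 to 150248879), the ubiquitous enolase gene, rose from 17.4, 25.1 and 20.6 CPM to 35.7, 67.7 and 76.1 CPM (log2 fold change 1.68, SE 0.32, edgeR adjusted p = 0.00529). Tpi1 (NCBI gene 21991, chromosome 6, 124810586 to 124814158), the triose phosphate isomerase gene, rose from 29.6, 42.5 and 39 CPM to 60.9, 70.7 and 54.4 CPM (log2 fold change 0.90, SE 0.21, edgeR adjusted p = 0.0122). Leaving out wt LSK replicate 1 or 3 ended the Tpi1 call (edgeR adjusted p = 0.0796 and 0.0531). All 4 are thus non-overlapping between the groups, with Tpi1 the smallest change.

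Gapdh, Pgk1 and Pgam1, the genes of the next steps, were higher in all leukemic libraries without passing. Pgk1 (phosphoglycerate kinase) had 13.3, 14.7 and 16 CPM and 19.1, 36.3 and 21 CPM (log2 fold change 0.95, SE 0.31, edgeR adjusted p = 0.0506), and passed with DESeq2 (adjusted p = 0.03) and when replicate 1 of iMLL-ENL total was left out (edgeR adjusted p = 0.0313). Pgam1 (phosphoglycerate mutase) had 0.591, 0.988 and 0.510 CPM and 2.22, 1.56 and 2.33 CPM (log2 fold change 1.71, SE 0.60, edgeR adjusted p = 0.0633). Gapdh had 6.81, 6.33 and 12.6 CPM across iMLL-ENL total (log2 fold change 0.84, SE 0.41, edgeR adjusted p = 0.162). All 3 share sequence with annotated copies, as given above. The minor isoform genes Aldoc (brain-type aldolase) and Eno3 (muscle-type enolase) did not pass, with log2 changes of -0.90 and 0.25 and edgeR adjusted p = 0.255 and 0.594.

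At the pyruvate branch, the member with the largest change of all was Slc16a3 (NCBI gene 80879, chromosome 11, 120948484 to 120959000), which encodes the lactate exporter MCT4. It stood at 1.56, 1.98 and 1.63 CPM in wt LSK and 18.9, 19.3 and 32.4 CPM across iMLL-ENL total. Every leukemic library was far above the normal ones (log2 fold change 3.93, SE 0.38, edgeR adjusted p = 0.000222). The related carrier gene Slc16a1 (MCT1), at 95.2, 74.5 and 87.5 CPM and 64.7, 60.6 and 76.2 CPM, did not pass (log2 fold change -0.20, SE 0.21, edgeR adjusted p = 0.505). Ldha, which encodes the lactate dehydrogenase subunit that favors lactate formation, had 254, 321 and 278 CPM and 350.1, 403 and 205 CPM. The leukemic libraries lay on both sides of the normal ones, and Ldha did not pass (log2 fold change 0.32, SE 0.24, edgeR adjusted p = 0.359), with a 95% interval from -0.24 to 0.87. Ldhb, the gene of the other subunit, had 8.0, 13.5 and 11.6 CPM and 1.99, 6.67 and 5.81 CPM (log2 fold change -1.02, SE 0.50, edgeR adjusted p = 0.16).

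Pyruvate dehydrogenase kinases keep pyruvate out of mitochondria. Pdk1 (NCBI gene 228026, chromosome 2, 71873215 to 71903858), the HIF-induced member, had 129, 181 and 189 CPM in wt LSK and 57.1, 63.4 and 57.2 CPM across iMLL-ENL total. The leukemic values were narrow and below every normal library, and Pdk1 fell (log2 fold change -1.33, SE 0.19, edgeR adjusted p = 0.00147). Pdk3 had 55.1, 50.6 and 51.7 CPM and 38.9, 19.3 and 36 CPM and did not pass (log2 fold change -0.59, SE 0.29, edgeR adjusted p = 0.161). Of the other kinase genes, taken from a list of further glycolysis isoforms, Pdk2 fell from 18, 20.8 and 14.7 CPM to 6.72, 5.11 and 5.68 CPM (log2 fold change -1.46, SE 0.31, edgeR adjusted p = 0.00837).

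Among the HIF genes, Hif1a (NCBI gene 15251, chromosome 12, 73901324 to 73947554) rose from 136, 131 and 127 CPM to 223, 265 and 266 CPM (log2 fold change 1.09, SE 0.18, edgeR adjusted p = 0.00235). Epas1, which encodes HIF-2 alpha, was near the low end at 3.97, 3.24 and 1.68 CPM and 7.04, 2.83 and 2.33 CPM (log2 fold change 0.59, SE 0.59, edgeR adjusted p = 0.492). The oxygen sensor genes Egln1 and Egln3 did not pass, with log2 changes of -0.22 and 0.19 and edgeR adjusted p = 0.551 and 0.721. Egln3 is itself a HIF target and had 83.3, 55.3 and 60.2 CPM in wt LSK and 109.7, 47.3 and 49.9 CPM across iMLL-ENL total, with leukemic replicate 1 above the rest. Vegfa (NCBI gene 22339, chromosome 17, 46016993 to 46032377), the angiogenic growth factor gene, rose from 57.1, 39.4 and 45.7 CPM to 100.5, 169.7 and 83.9 CPM (log2 fold change 1.46, SE 0.30, edgeR adjusted p = 0.00789). Bnip3, a mitophagy receptor gene and a sensitive hypoxia target, was low in both groups, at 3.49, 3.18 and 5.0 CPM and 3.24, 4.78 and 4.67 CPM (log2 fold change 0.28, SE 0.44, edgeR adjusted p = 0.676). Ankrd37, another hypoxia target, had 1.24, 2.96 and 1.53 CPM and 1.71, 8.78 and 2.73 CPM, with leukemic replicate 2 above the rest (log2 fold change 1.37, SE 0.71, edgeR adjusted p = 0.183). Of the 7 HIF and hypoxia genes, 2 therefore rose, 0 fell and 5 did not pass, where 15.5% of all genes tested rose and 15.1% fell.

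**Figure D2:**
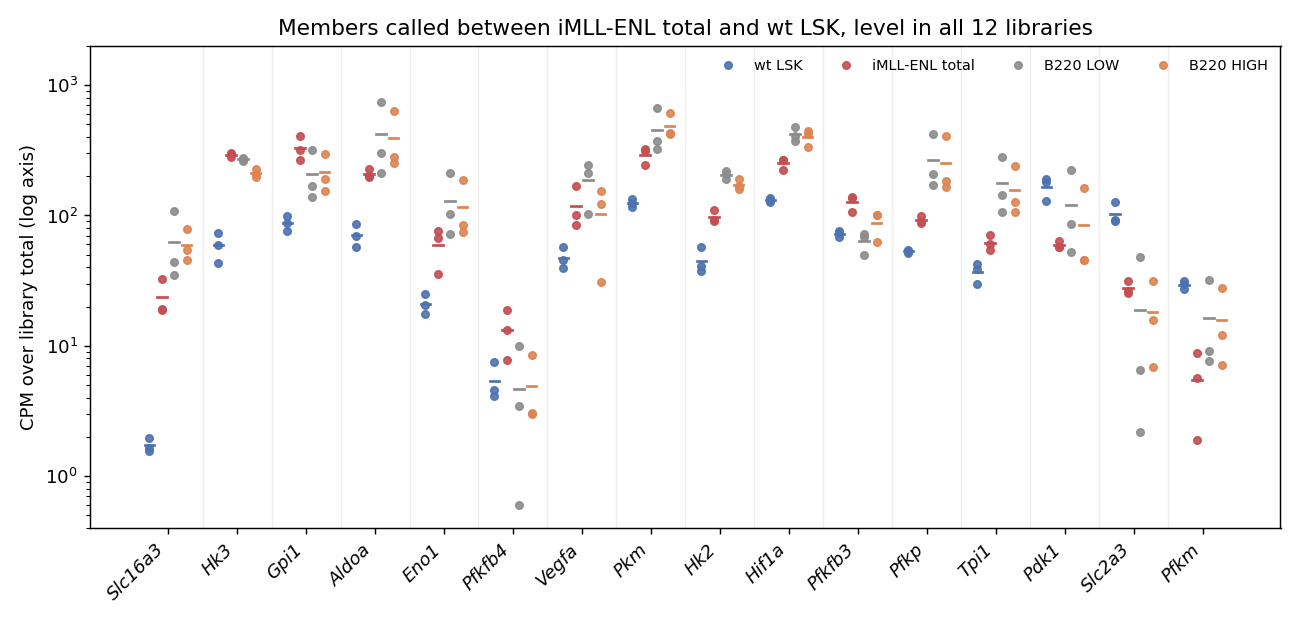
CPM over the library total on a log axis for the 16 genes called between iMLL-ENL total and wt LSK, ordered by fold change, with 1 point per library in all 4 groups and a bar at each group's mean. The red points (iMLL-ENL total) lie above the blue points (wt LSK) for the first 13 genes and below for Pdk1, Slc2a3 and Pfkm; the grey and orange B220 libraries come from a separate count table and were not tested against these.

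Because several steps have more than 1 gene, levels were also compared within each step after division by gene length, as the share of the step's per-length level (CPM per kilobase). With 3 libraries against 3, an exact two-sided permutation test cannot go below p = 0.1, so no share can pass a threshold of 0.05. For hexokinase, the Hk3 share was 47.3% ± 8.87 (SD, n = 3) in wt LSK and 76.8% ± 1.73 across iMLL-ENL total, and the Hk1 share was 30.5% ± 6.76 and 7.98% ± 1.08 (exact permutation p = 0.1 for each). For phosphofructokinase, by the gene lengths deposited with the counts, wt LSK held the 3 subunits in like amounts. The shares were 36.7% ± 0.908 for Pfkl, 28.8% ± 0.913 for Pfkm and 34.5% ± 1.37 for Pfkp. These lengths were 0.557 of the GENCODE exon bases for Pfkl, 0.913 for Pfkm and 0.344 for Pfkp. Shares by GENCODE length were not computed. In iMLL-ENL total the Pfkp share was 64% ± 9.38 and the Pfkm share 5.54% ± 3.38 (exact permutation p = 0.1 for each). For glucose uptake, the Slc2a1 share was 45.1% ± 3.10 in wt LSK and 77.6% ± 4.42 across iMLL-ENL total (exact permutation p = 0.1). For lactate export, the Slc16a3 share was 3.40% ± 0.850 and 37% ± 4.63 (exact permutation p = 0.1). For enolase, the Eno1 share was 45% ± 1.45 and 67.2% ± 10.7 (exact permutation p = 0.1), where the counts of Eno1 are uncertain as described. None of these shares overlapped between the groups.

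In 3 other pairs 1 gene made up at least 94.1% of the level in every library of both groups. Aldoa made up at least 94.9% of the aldolase level in every wt LSK library and 99% in every leukemic one. Ldha made up at least 94.1% and 96% of the lactate dehydrogenase level, and Hif1a at least 97.1% and 96.9% of that of Hif1a and Epas1. Pfkfb3 also led its pair, with 85.4% to 92.2% in wt LSK and 82.9% to 91.8% across iMLL-ENL total. The shares of Pdk1 against Pdk3, Egln1 against Egln3 and Pfkfb3 against Pfkfb4 overlapped between the groups (exact permutation p = 0.2, 0.7 and 0.3). In both B220 groups the leading genes were those of iMLL-ENL total: Hk3 held 63.4% ± 0.306 in B220 LOW and 61.4% ± 3.17 in B220 HIGH, Pfkp 75.6% ± 3.25 and 74.9% ± 5.02, and Slc2a1 95.4% ± 3.97 and 95.2% ± 2.07. No share differed between B220 HIGH and B220 LOW without overlap, and the lowest exact permutation p was 0.2.

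**Figure D3:**
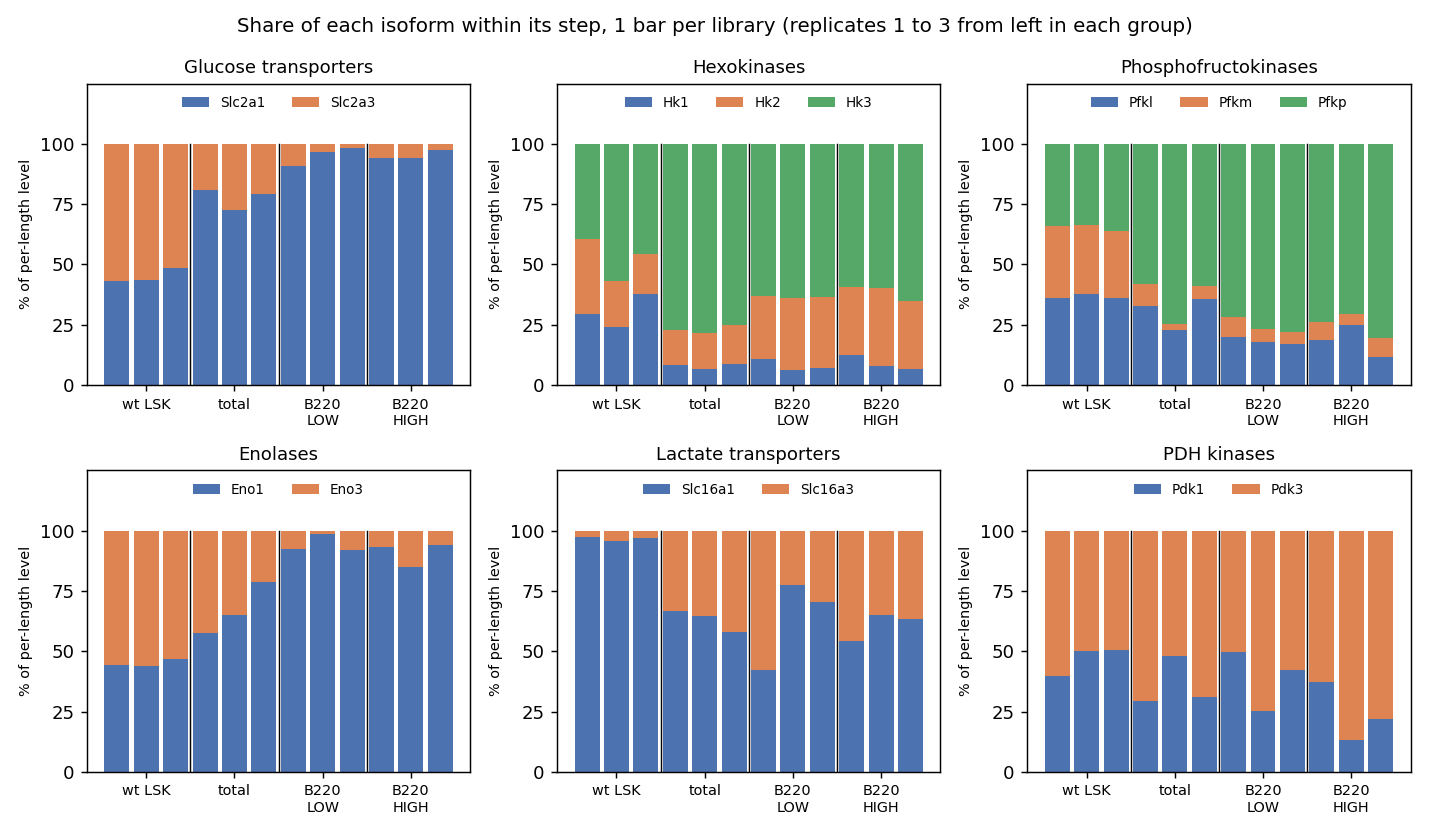
Share of each gene in the summed per-length level of its step, in percent, with 1 stacked bar per library and thin lines between the 4 groups. By the deposited gene lengths, the 3 wt LSK bars show near equal phosphofructokinase subunits and a large Slc2a3 part. The 9 leukemic bars are led by Hk3, Pfkp and Slc2a1.

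Compared per length across the 33 genes, Ldha had the highest level in every group, at 147 ± 17.7 CPM per kilobase (mean ± SD, n = 3) in wt LSK, 165 ± 52.9 across iMLL-ENL total, 644 ± 253 in B220 LOW and 608 ± 185 in B220 HIGH. Aldoa came next in each group by its mean, at 38.9 ± 7.78, 114 ± 8.92, 230.0 ± 158 and 214 ± 116. In iMLL-ENL total, Ldha and Aldoa did not differ beyond their spread. In wt LSK, Aldoa and Pkm (35.8 ± 2.74) did not differ beyond their spread. In iMLL-ENL total, Gpi1 (93.1 ± 20.4), Hk3 (89.2 ± 3.19) and Pkm (83.6 ± 12.2) followed within their spread. Pgam1 was lowest in wt LSK, at 0.380 ± 0.140, and Epas1 in iMLL-ENL total, at 0.760 ± 0.483. The order is uncertain where reads match several places, as described above for Gapdh, Pgk1, Eno1 and Pgam1. Of the 50-base stretches of Ldha, 10.4% also occur in another gene's transcript, and 14 annotated pseudogenes share at least 1.

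Lists of related genes were counted in the same fit of iMLL-ENL total against wt LSK, with the same background of 15.5% higher and 15.1% lower over all genes. Of 7 pentose phosphate genes, whose enzymes branch from glucose 6-phosphate to make NADPH and ribose, 5 rose, 0 fell and 2 did not pass, with a median log2 change of 1.46. Pgd, the second NADPH-forming enzyme gene, stood at 67, 86.5 and 77.8 CPM in wt LSK and 461, 634 and 592 CPM across iMLL-ENL total (log2 fold change 3.03, SE 0.21, edgeR adjusted p = 5.13e-05). Taldo1 (transaldolase) rose from 27.2, 50.4 and 31.8 to 126, 169 and 142 CPM (log2 fold change 2.17, SE 0.26, edgeR adjusted p = 0.000559). Tkt (transketolase; log2 fold change 1.32, SE 0.21, edgeR adjusted p = 0.00218) and Rpe (ribulose phosphate epimerase; log2 fold change 1.24, SE 0.18, edgeR adjusted p = 0.0016) rose as well. Every leukemic library lay above every wt LSK library for 5 of the 7 genes, against 19.0% of all genes tested.

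Of 24 further HIF targets, 20 were tested: 5 rose, 3 fell and 12 did not pass, with a median log2 change of 0.28. Ero1a, which encodes an oxidase of protein folding, rose from 43.9, 41.6 and 40.3 CPM to 259, 292 and 278 CPM (log2 fold change 2.87, SE 0.18, edgeR adjusted p = 3.39e-05). Cxcr4, a chemokine receptor gene, and Hmox1, the heme oxygenase gene, rose (log2 changes 1.98 and 2.42, edgeR adjusted p = 0.000928 and 0.00133). Ak4, a mitochondrial adenylate kinase gene, fell from 20.3, 22.3 and 26 CPM to 0.556, 0.222 and 0 CPM (log2 fold change -6.29, SE 0.82, edgeR adjusted p = 0.000876). The calls make up 25% of the tested list higher and 15% lower, the second close to the 15.1% of all genes. Of 7 genes listed for oxygen sensing and the HIF complex, P4hb and Cited2 (a HIF-induced inhibitor of HIF) rose (log2 changes 1.73 and 1.46, edgeR adjusted p = 0.000433 and 0.00848), 0 fell and 5 did not pass. P4hb encodes a protein disulfide isomerase, which is neither an oxygen sensor nor part of the HIF complex.

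Of 23 further glycolysis isoforms and regulators, 15 were tested: 3 rose, 3 fell and 9 did not pass, with a median of 0.38. Slc2a6, a lysosomal glucose transporter gene of myeloid cells, rose from 1.29, 2.69 and 1.79 CPM to 22.7, 11.2 and 25 CPM (log2 fold change 3.52, SE 0.46, edgeR adjusted p = 0.00088). Tigar, which encodes a fructose bisphosphatase that lowers glycolytic flux, rose from 6.50, 6.09 and 6.02 CPM to 28.4, 44.4 and 47.7 CPM (log2 fold change 2.85, SE 0.31, edgeR adjusted p = 0.000352), and Adpgk, an ADP-dependent glucokinase gene, from 44, 45.2 and 49.7 CPM to 114, 208 and 400.1 CPM (log2 fold change 2.55, SE 0.43, edgeR adjusted p = 0.00313). Of 18 TCA cycle genes 3 rose (16.7%), 0 fell and 15 did not pass (median 0.27), and of 10 genes of pyruvate dehydrogenase and the pyruvate carrier 1 rose (10%), 0 fell and 9 did not pass (median 0.28). Both shares of higher calls lie near the 15.5% of all genes. The TCA cycle genes were Mdh2, Dlst and Sdhd (log2 changes 1.04, 0.89 and 0.84, edgeR adjusted p = 0.00836, 0.00907 and 0.0247). Mdh2 and Dlst lost their calls without wt LSK replicate 1 (edgeR adjusted p = 0.0571 and 0.0518), Dlst also without wt LSK replicate 3 (0.0513), and Sdhd without wt LSK replicate 1, 2 or 3 (0.127, 0.0669 and 0.0865) and with library totals (0.0605). The carrier gene was Mpc2 (log2 fold change 1.90, SE 0.55, edgeR adjusted p = 0.0297), which did not pass with wt LSK replicate 1, 2 or 3 left out (edgeR adjusted p = 0.126, 0.0594 and 0.106) and with replicate 2 of iMLL-ENL total left out (log2 change 1.08, edgeR adjusted p = 0.0577).

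The second comparison set leukemic cells with high B220 against those with low B220. None of the 33 genes was called by edgeR's quasi-likelihood test, and none had an unadjusted p under 0.05, the smallest being 0.0941. DESeq2 called 0 of the 32 genes it gave an adjusted p, and also had 0 at an unadjusted p under 0.05. Over all 12564 genes tested, edgeR called 0% and 7.0% had an unadjusted p under 0.05, while DESeq2 called 1.85%. With the replicate number as a block, edgeR called 0.629% of all genes and 0 of the 33. The blocked fit gave 1 of the 33 an unadjusted p under 0.05, Vegfa (edgeR adjusted p = 0.157), against 1549 of all 12564 genes tested. The median log2 change over the 33 genes was -0.01, against -0.03 over all genes.

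Hk3 was the only 1 of the 33 whose libraries did not overlap between the sorts (3.03%, against 13.4% of all genes tested in either direction, 6.20% higher and 7.22% lower), with 271, 274 and 262 CPM in B220 LOW and 196, 209 and 228 CPM in B220 HIGH. Its change was small and did not pass (log2 fold change -0.30, SE 0.23, edgeR adjusted p = 0.873). Vegfa, singled out after its values were seen, was lower in B220 HIGH than in the same-numbered B220 LOW library for all 3 numbers. It had 213, 243 and 103 CPM in B220 LOW and 155, 123 and 30.8 CPM in B220 HIGH (log2 fold change -0.85, SE 0.51, edgeR adjusted p = 0.823). This order was not particular to Vegfa, since Hk2, Hk3, Pgam1 and Pdk1 had it too. Slc2a1, Pdk3 and Ankrd37 were higher in B220 HIGH for all 3 numbers. The share of all genes with such an order was not counted. Without the block, the 95% intervals ran from -0.75 to 0.33 for Hk2, from -0.69 to 0.62 for Ldha, from -0.91 to 0.93 for Slc16a3 and from -2.54 to 2.76 for Bnip3, all on the log2 scale. With the block they ran from -0.58 to 0.16 for Hk2, from -0.31 to 0.29 for Ldha, from -0.52 to 0.78 for Slc16a3 and from -0.14 to 2.54 for Bnip3. Differences of Hk2 and Ldha larger than about 2-fold thus lie outside their intervals in both fits, which is not the case for Bnip3. The block moved the log2 change of Bnip3 from 0.11 to 1.20, of Aldoc from 0.40 to 1.60 and of Slc2a3 from 0.01 to 0.83, none of them called (edgeR adjusted p = 0.451, 0.478 and 0.621).

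Replicate 1 of both sorts stood apart from the other 4 B220 libraries, with higher levels of both glucose transporter genes, most lower chain genes and several hypoxia genes. Bnip3 had 73.7, 2.46 and 4.51 CPM in B220 LOW and 57, 14.2 and 11.6 CPM in B220 HIGH. Aldoc had 23.9, 0.893 and 1.5 CPM and 19.8, 5.73 and 7.08 CPM. Egln3 had 237, 68.3 and 76.2 CPM and 277, 67.7 and 60.6 CPM. In each of these 3 genes the first value of either sort was the highest of its group, and both lay above all other B220 libraries.

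Glucose transport and the pyruvate branch showed it as well. Slc2a3 had 48.2, 6.47 and 2.17 CPM in B220 LOW and 31.4, 15.8 and 6.93 CPM in B220 HIGH. Pdk1 had 225, 52.2 and 85.5 CPM and 162, 45.5 and 45.9 CPM, and Slc16a3 107, 34.8 and 44.2 CPM and 78.2, 45.8 and 54.7 CPM. Ldhb ran the other way, with 0.0655, 0.595 and 9.02 CPM in B220 LOW and 0.366, 3.64 and 0.708 CPM in B220 HIGH, lowest in replicate 1 of each sort.

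The same order held for abundant enzymes. Ldha had 1803, 900.4 and 1027 CPM in B220 LOW and 1569, 875 and 1076 CPM in B220 HIGH. Aldoa had 749, 299 and 210.4 CPM and 635, 283 and 255 CPM. Pkm had 671, 370.2 and 321 CPM and 612, 430.2 and 425 CPM, with a smaller gap between replicate 1 and the others. Slc2a1 had 191, 78.5 and 54.9 CPM and 195, 98.7 and 112 CPM. Both replicate 1 libraries were the highest of the 6 for 22 of the 33 genes (66.7%), against 21.6% of all genes tested, and the lowest for 1 of the 33, Ldhb (3.03%, against 9.59%). For replicate 2 these counts were 1 highest (Hif1a; 3.03%, against 5.49%) and 1 lowest (Ldha; 3.03%, against 6.24%). For replicate 3 they were 0 highest (against 4.90%) and 8 lowest (24.2%, against 12.1%). These ranks use CPM over library totals, without TMM factors. Those factors were 1.11 (B220 LOW) and 1.09 (B220 HIGH) for replicate 1 and 0.908 to 0.988 for the other B220 libraries. The median log2 ratio of replicate 1 to the others was 0.97 over the 33 genes and 0.15 over all genes tested.

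By role, both replicate 1 libraries were highest for 8 of 9 genes of the lower chain, 5 of 9 of the upper chain, both glucose transporters, 3 of 6 at the pyruvate branch, 2 of 4 HIF and sensor genes and 2 of 3 hypoxia targets. The shares of all genes tested, for these counts and those below, were 21.6% highest and 9.59% lowest. The genes not highest in both replicate 1 libraries were Hk2, Hk3, Pfkfb3, Pfkfb4, Eno3, Ldhb, Pdk3, Slc16a1, Hif1a, Epas1 and the hypoxia target Vegfa. Hk2 had 189, 218 and 208 CPM in B220 LOW and 158, 189.6 and 167 CPM in B220 HIGH, and Slc16a1 135, 204 and 179.6 CPM and 158, 145 and 163 CPM. Hif1a had 409.6, 474 and 374 CPM in B220 LOW and 338, 441 and 419 CPM in B220 HIGH. Of 22 further HIF targets tested, 12 were highest in both replicate 1 libraries (54.5%) and 0 lowest. Ero1a, for one, had 1290.2, 502 and 350.2 CPM in B220 LOW and 1296, 402 and 563 CPM in B220 HIGH. Of the 7 pentose phosphate genes, 0 were highest and 4 lowest (57.1%), and of 18 TCA cycle genes 5 were highest (27.8%) and 2 lowest (11.1%). For 14 further glycolysis isoforms the counts were 1 and 2, and for the 7 genes listed for oxygen sensing 1 (P4hb) and 0. For 10 genes of pyruvate dehydrogenase and the carrier they were 2 (20%) and 4 (40%).

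The labels do not say whether a number marks a mouse, a day or a batch. The replicate 1 libraries had the lowest granulocyte marker sums of their groups, 2572 CPM in B220 LOW, where the others had 8527 and 7480.2, and 860.3 CPM in B220 HIGH, where the others had 18081 and 5814. The monocyte and macrophage sums were lowest in replicate 1 as well, with 365, 495 and 541 CPM in B220 LOW and 502, 951 and 984 CPM in B220 HIGH. The part of these markers in the order of the glycolysis genes was not tested. In the iMLL-ENL total libraries, replicate 1 was the lowest of the 3 for Bnip3 (3.24, 4.78 and 4.67 CPM), between the others for Ldha (350.1, 403 and 205 CPM) and the highest for Egln3 (109.7, 47.3 and 49.9 CPM). Without both replicate 1 libraries, a choice made after the data were seen, edgeR called 0 of the 33 genes between the sorts. Slc2a1 and Bnip3 then had an unadjusted p under 0.05 (log2 changes 0.74 and 1.93, edgeR adjusted p = 0.353 and 0.358), both higher in B220 HIGH. In that fit 1657 of all 12654 genes tested had an unadjusted p under 0.05.

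**Figure D4:**
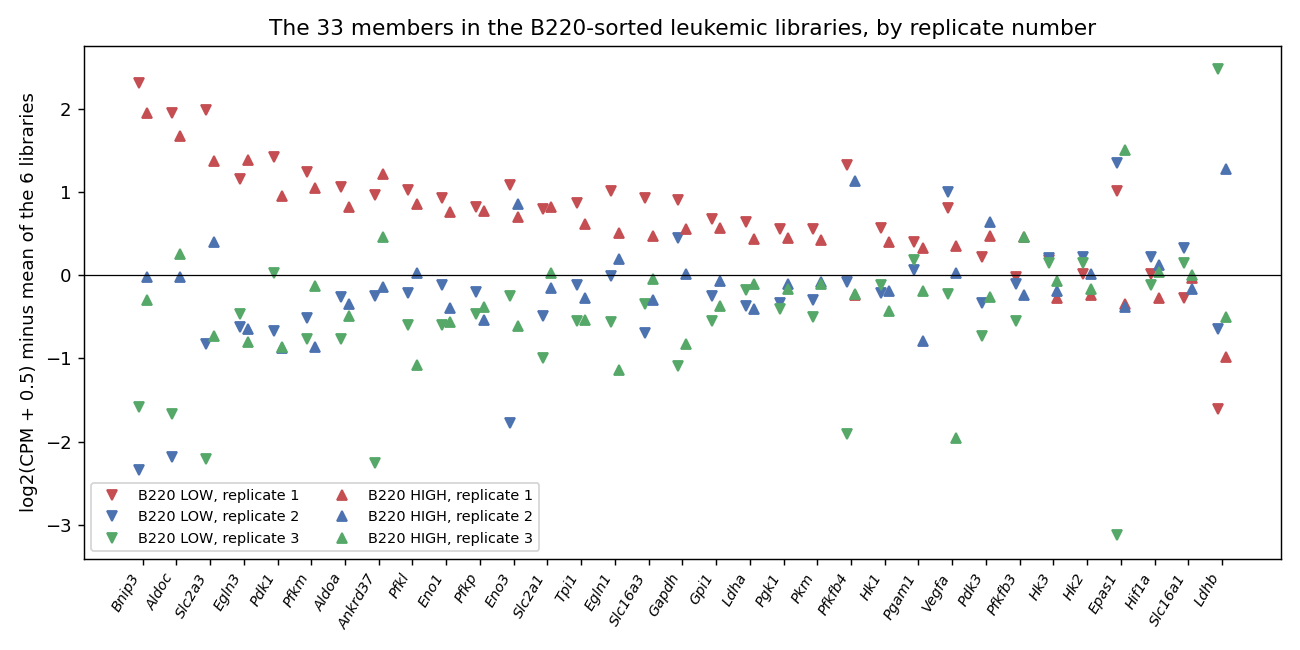
Each of the 33 genes in the 6 B220-sorted libraries, as log2(CPM + 0.5) minus the gene's mean over the 6, with the color giving the replicate number and the triangle's direction the sort. Genes are ordered by the ratio of the replicate 1 libraries to the others; red triangles of both sorts lie above the others for 22 genes, among them Bnip3, Aldoc, Egln3 and Aldoa, and red lies lowest for Ldhb.

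The B220 libraries were deposited in a separate count table from the iMLL-ENL total libraries, so levels across these groups are set side by side in CPM without a test. All 6 B220 libraries lay above all 3 iMLL-ENL total libraries for 9 of the 33 genes (27.3%, against 11.3% of 13174 genes with a mean of at least 1 CPM) and below for 3 (9.09%, against 8.74%). The 9 genes were Slc2a1, Hk2, Pfkp, Tpi1, Pgk1, Ldha, Slc16a1, Slc16a3 and Hif1a. With B220 replicates 2 and 3 alone, the counts were 9 above (27.3%, against 14.9% of the same 13174 genes) and 5 below (15.2%, against 16.9%). Ldha, for example, ranged from 874.9 to 1803 CPM in the B220 libraries and from 205.4 to 403 CPM across iMLL-ENL total. Hk2 ranged from 158 to 218 CPM and from 89.9 to 111 CPM. The 3 lower genes were Hk3, Pfkfb3 and Eno3, with Hk3 at 196 to 274 CPM in the B220 libraries and 280.0 to 300.3 CPM across iMLL-ENL total. The sort itself separates these groups as well, and sorting, table and cell content cannot be told apart here.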

How the data were processed

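The authors deposited read counts for NCBI gene IDs in 2 tables, one with wt LSK and iMLL-ENL total and one with B220 LOW and B220 HIGH. Libraries were made with the unstranded NuGen Ovation RNA-Seq kit, per the labels' protocols. Per the submitters' processing notes, edgeR and the builds GRCm38 and mm10 were used; aligner, counter and annotation are not named there. The deposited width per gene, in bases, gave levels per length. Symbols and coordinates came from RefSeq (GRCm38.p6), which matched 23968 of the 24028 IDs, and exon overlaps and shared 50-base stretches from GENCODE M21 on GRCm38.

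Each comparison was fitted within its table with edgeR 4.0.16 in R 4.3.3 (quasi-likelihood F test, robust, TMM factors, filterByExpr with a minimum count of 10, two-sided, Benjamini-Hochberg over all genes tested, calls at an adjusted p under 0.05). The SE is the log2 change divided by the square root of F. Alternatives were DESeq2 1.42.0, RLE factors, library totals, no filter, the replicate number as a block, and leaving out each library. The fit was also run on simulated data with 200 changed genes and no link between libraries of the same number. No result given here rests on that run. All 33 genes are described, and of each related list at most 4 called genes by smallest p are named; the examples of the replicate-number order were picked after their values were seen. The members and lists were chosen with earlier results of these data known.

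The groups share replicate numbers 1 to 3. After subtraction of group means, B220 HIGH and B220 LOW libraries of the same number correlated over 13174 genes (0.431, 0.201 and 0.311). All lie above 0.1, and a fit with the numbers as pairs (the block) is therefore given there beside the main fit. The main fit of the B220 sorts does not pair the libraries. Taking the numbers as pairs rests on the data and not on the labels. Library totals set the precision of low genes; CPM of a gene with few counts carries counting error beyond the spread shown.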

Additional observations from a re-analysis of the deposited data

How the results depend on the processing

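With iMLL-ENL total set against wt LSK, DESeq2, RLE factors, library totals, no filter, the block and each library left out gave 11 to 14 higher calls and 3 lower calls among the 33 genes. Over all genes, leaving out 1 library gave 1181 to 2253 higher and 1383 to 2275 lower calls. The median log2 change of the 33 genes was 0.68 with library totals and 0.62 to 0.94 without 1 library. The calls lost were those of Pfkfb4 and Tpi1 given in the report, and Pgk1 gained one; the cause was not tested. Genes without a call whose sign turned when 1 library was left out ranged, in log2, as follows: Hk1 from -0.35 to 0.080, Pfkl from -0.43 to 0.049, Epas1 from -0.032 to 0.85, Egln1 from -0.41 to 0.0013, Egln3 from -0.28 to 0.41.

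Between the B220 sorts, 0 of the 33 genes were called under each of these settings. Over all genes, DESeq2 called 219 higher and 13 lower and the fit without a filter 21 and 1, where edgeR with the filter called 0 and 0. Without 1 library, or without both libraries of replicate 1, there were 0 to 96 higher and 0 to 2 lower calls; fewer samples were then fitted. The median log2 change of the 33 genes was 0.42 without B220 LOW replicate 1 and -0.23 without B220 HIGH replicate 1. The sign of some uncalled changes turned with the scale: with library totals Slc2a3 was at -0.071, Slc16a3 at -0.061 and Epas1 at -0.091, Pfkm was at 0.023 with DESeq2, 0.023 with RLE factors and 0.015 without a filter, and Hif1a at 0.013, 0.013 and 0.014 in those fits. Without 1 library or both of replicate 1, the log2 changes whose sign turned ranged as follows: Slc2a3 from -0.54 to 1.99, Hk1 from -0.30 to 0.087, Gpi1 from -0.13 to 0.44, Pfkl from -0.52 to 0.47, Pfkm from -0.58 to 0.83, Pfkp from -0.47 to 0.35, Pfkfb4 from -0.49 to 1.61, Aldoa from -0.48 to 0.56, Aldoc from -0.23 to 3.09, Tpi1 from -0.44 to 0.29, Gapdh from -0.62 to 0.11, Pgk1 from -0.0015 to 0.42, Eno1 from -0.54 to 0.34, Eno3 from -0.046 to 1.40, Ldha from -0.20 to 0.24, Ldhb from -2.54 to 2.34, Pdk1 from -1.24 to 0.21, Slc16a1 from -0.32 to 0.031, Slc16a3 from -0.26 to 0.55, Hif1a from -0.091 to 0.15, Epas1 from -1.04 to 0.73, Egln1 from -0.49 to 0.22, Egln3 from -0.82 to 0.81, Bnip3 from -0.84 to 2.88.

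The replicate block, with replicate numbers taken as pairs, gave 73 higher and 6 lower calls over all genes between the B220 sorts and turned the uncalled log2 changes of Pfkm to 0.072, Aldoa to 0.031, Ldhb to 0.71 and Epas1 to -0.059. For iMLL-ENL total and wt LSK the numbers did not pair the libraries (correlations of deviations 0.0214, 0.209 and -0.0441). The block there gave 13 higher and 3 lower calls among the 33 genes with a median of 0.75, and changed no call of a gene named here.

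Shares of counts not divided by gene length moved the difference in share between iMLL-ENL total and wt LSK by more than the spread for Hk1 (to -29.95 percentage points), Pfkm (-18.93), Aldoa (5.49) and Slc16a3 (23.5). Counting depth limits Pgam1, Ankrd37, Epas1, Ldhb, Bnip3, Gapdh, Pfkm, Pfkfb4, Aldoc and Eno3, which had under 10 CPM in several libraries. It also limits Slc16a3 in wt LSK, at 1.56, 1.98 and 1.63 CPM, and Slc2a3 in some B220 libraries. Groups of 3 libraries give no exact p below 0.1.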
